A study of Mus musculus with 6 samples.

Results

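Circular RNAs (circRNAs) of 6 or more exons were taken from the deposited circRNA table as all rows of the exonic type whose listed exon number was at least 6. They numbered 5462 of the 17369 rows of the table and 36.1% of its 15118 exonic rows, and came from 1924 host genes. RNA was measured in the prefrontal cortex of male C57BL/6 mice that were 5 weeks old when the experiment began and are listed at an age of 30 weeks. The TREAT_HIGH mice (3 libraries) received polystyrene nanoparticles (PS NPs) at 50 mg/kg body weight by daily gavage for 6 months, and the CON mice (3 libraries, 0 mg/kg) received water. The design text states the aim of identifying translational circRNAs, lncRNAs and mRNAs after this exposure. The labels list separate samples but do not say whether each was 1 animal or a pool, so p-values measure the spread between these samples. In bulk tissue, fewer cells of a type and less RNA per cell cannot be told apart.

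A circRNA forms when the splicing machinery joins the end of an exon to the start of the same or an earlier exon, which is called back-splicing. The closed loop lacks free ends and resists exonucleases. Brain tissue is known for many circRNAs from neuronal genes, and the exons between the 2 back-spliced ends can be kept or spliced out of the loop. The listed exon number therefore counts the exons assigned by the authors between the ends and is not a sequenced circle. Each circle was measured by the count of reads across its back-splice junction, and SRPBM is that count divided by a total of the library and multiplied by a constant, as deposited. Sequences of the circles are not shown, because no genome of a stated build was used here. Coordinates are those of the deposited table, for which no build was stated. Of 5414 rows whose host was in a gene table of GRCm38.p6, 5407 lay inside that gene.

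All circRNA rows together held 19880, 15658 and 17353 back-splice reads in the TREAT_HIGH libraries and 19494, 17554 and 19957 in the CON libraries. The sums of deposited estimated counts of linear transcripts were 53344395 to 66004386 per library. The 5 excitatory neuron markers, Slc17a7 among them, summed to 290.5 to 338 FPKM in TREAT_HIGH and 272 to 364 FPKM in CON. Choroid plexus markers ranged from 10.2 to 467 FPKM in TREAT_HIGH and from 5.88 to 238 FPKM in CON, a wide range within each group. Blood markers summed to 56.6 to 156 FPKM in TREAT_HIGH and 94.8 to 236 FPKM in CON. The ranges of the groups overlapped in each of these lists, but not in every marker list that was read. The 2 olfactory bulb markers summed to 0.152 to 0.261 FPKM in TREAT_HIGH and 0.227 to 0.414 FPKM in CON, with Eomes at 0 in every library. The part of these other tissues and cell types in the results below was not tested. In a principal component analysis of the tested rows of 6 or more exons, the first component (24.6% of the variance) put the TREAT_HIGH libraries at -24, 15.3 and 11.2 and the CON libraries at -1.03, 1.14 and -2.5. TREAT_HIGH libraries thus lay outside the CON range on both sides of it. Over summed circles they lay at -22.4, 18.6 and 5.01 in TREAT_HIGH and at 0.143, 4.28 and -5.63 in CON.

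Most of these circles were rare, and a few were present in every library. Of the 5462 rows, 3749 (68.6%) had reads in a single library and 2226 rested on 1 read in total. The 186 rows with reads in all 6 libraries held 40.5% of the reads, and the 10 most abundant rows held 14.5%. Rows with reads in at least 3 libraries numbered 892 and held 66.4% of the reads, with a median of 10 reads per row. Names of the form mmu_circ, which the circBase catalogue uses, were carried by 1008 rows (18.5%), and these held 43.9% of the reads. Of the 186 rows found in all libraries, 124 had such a name.

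Part of the circles stood in the table as 2 rows. Rows that give the host as an Ensembl identifier started 1 base to the right of the rows that give a symbol. The start less 1 base was a start of the symbol rows for 64.7% of the 2416 Ensembl-labelled exonic rows, and the start itself for 0.331%. After this base was taken off, 1173 pairs of exonic rows had the same start, end and strand, and 375 of them included a row of 6 or more exons. In these 375 pairs, reads stood in exactly 1 row of the pair in 1448 library values and in both rows in 1. The circle of Fancl, a ubiquitin ligase gene of DNA crosslink repair, shows the pattern. Its Ensembl-labelled row (circRNA4038, 6 exons) had 0, 30 and 45 reads in TREAT_HIGH and 23, 0 and 23 in CON. Its symbol row (mmu_circ_0000248) had 5, 0 and 0 reads in TREAT_HIGH and 0, 9 and 0 in CON. Each library thus had its reads in 1 of the 2 rows, and a 0 in either row did not mean that the junction was unseen.

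Summing paired rows left 5100 circles of 6 or more exons, of which 985 had reads in at least 3 libraries and 258 in all 6. Among rows that reached 10 reads in a library, 46 of 155 were at 0 in another library, and among summed circles 11 of 147. Results below are given for rows. The value for summed circles stands beside part of the results that the pairs touch, so a row value without it can be affected by the split.

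Circles near the lower limit of 6 exons were the most numerous. Rows of 6 exons numbered 1336, rows of 7 exons 932, and together they held 49.8% of the reads of this group. The median was 8 exons, 168 rows had more than 20, and the longest listed circle had 66. The median span on the chromosome was 17541 bases at 6 exons, 30302 bases at 10 exons and 85038 bases at 21 or more exons. The share of rows with reads in all 6 libraries was 4.87% at 6 exons, 4.4% at 7, 3.19% at 8, 3.12% at 9 and 3.4% at 10. It was 1.55% at 11 to 15 exons, 2.41% at 16 to 20 and 1.19% at 21 or more, so the order was not strict. For summed circles the share was 7.47% at 6 exons, 5.6% at 10 and 1.23% at 21 or more. Reads per row were 6.49 at 6 exons, 4.66 at 10, 3.58 at 11 to 15 and 2.57 at 21 or more. The value at 16 to 20 exons, 7.83 reads per row, rested on 1 circle of Strbp and was 3.6 without it.

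**Figure D1:**
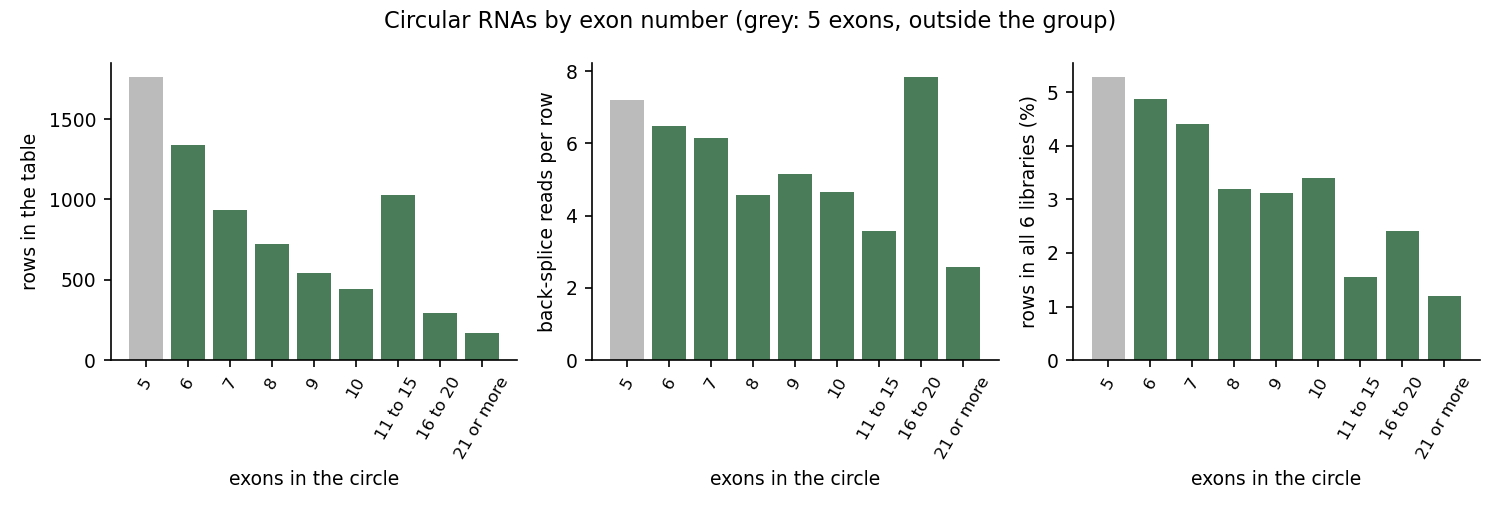
Number of rows, back-splice reads per row over the 6 libraries together, and the share of rows with reads in all 6 libraries, by exon number of the circle (x axis). Rows fall from 1336 at 6 exons to 441 at 10, and the bar of 16 to 20 exons stands out in reads per row (7.83) because of 1 circle of Strbp.

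Against circles of 2 to 5 exons, those of 6 or more were less deeply covered in every library. The mean was 0.883 ± 0.0898 reads per row and library for 6 or more exons, and 1.11 ± 0.0912 for 2 to 5 exons (SD over 6 libraries). The difference of -0.232 reads had the same sign in 6 of 6 libraries (p = 0.031, exact permutation of signs, two-sided, the smallest p that 6 libraries allow), and for summed circles it was -0.27 with the same exact p. The share of rows found in all 6 libraries was 3.41% at 6 or more exons and 5.08% at 2 to 5 exons. For summed circles these shares were 5.06% and 7.39%. Levels just inside and just outside the limit are given as a description. The 5 most abundant rows of 6 exons had mean levels of 872, 725, 415, 236 and 172 SRPBM. The last of these was the Fancl row described above, which has a paired row. The 5 most abundant rows of 5 exons, those of Kcnt2, Dpy19l1, Atrnl1, Abraxas1 and Zdhhc21, had 386, 353, 338, 245 and 242 SRPBM.

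The position in the host transcript was given for 4672 rows of 6 or more exons. Of these, 1122 (24.0%) began with exon 2 and 532 (11.4%) with exon 3, while 2 began with exon 1 and 3 ended with the last exon of the transcript. A back-splice needs a splice acceptor at its first exon, which the first exon of a transcript lacks. The second-last exon closed 513 circles, and 148 ran from exon 2 to the second-last exon. Rows that began with exon 2 held 37.1% of the reads, at 7.42 reads per row, against 3.97 reads per row for those that began later. Circles of 2 to 5 exons began with exon 2 in 24.3% of rows and held 36.9% of their reads there, and single-exon circles in 43.3%. The host transcripts of the longer circles had a median of 23 exons, of which a median of 39.3% lay in the circle.

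**Figure D2:**
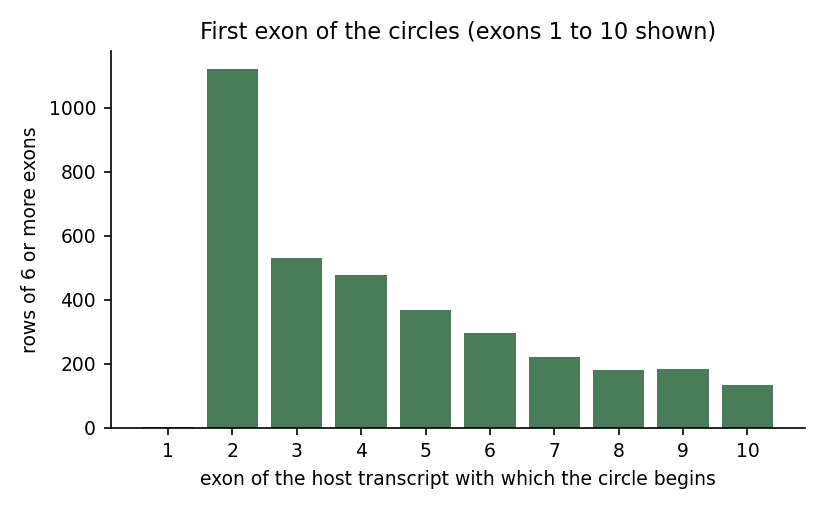
Number of rows of 6 or more exons (y axis) by the exon of the host transcript with which the circle begins (x axis, exons 1 to 10). Exon 2 stands highest with 1122 rows, and exon 1 has 2.

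Ends of the longer circles were often used by other circles of the same gene. Of the 5100 summed circles, 57.1% shared their acceptor, the 5′ end of the first exon, with another exonic circle, and 46.7% shared their donor. The shares were 40.4% and 35.5% among 8203 circles of 2 to 5 exons, a difference that was not tested. For Ensembl-labelled rows without a pair, the shift of the start was not taken off here. Ends that these rows share with symbol rows were missed, so the shares of both classes can be too low. Where the table gave flanking introns (659 rows of 6 or more exons and 1201 of 2 to 5 exons with both introns), the median upstream intron had 9267 bases at 6 or more exons and 10531 at 2 to 5, and the median downstream intron 7749 and 9455 bases.

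The most abundant circle of 6 or more exons was a 17-exon circle of Strbp, which encodes an RNA-binding protein of double-stranded RNA. This row (circRNA4811, chromosome 2, 37580674 to 37647285, minus strand) had 194, 186 and 202 back-splice reads in TREAT_HIGH and 235, 171 and 248 in CON. In SRPBM it stood at 1751 ± 72.2 in TREAT_HIGH and 1709 ± 314 in CON (SD, n = 3 each). The groups overlapped, and it alone held 4.27% of all reads of the longer circles. A second Strbp circle, of 9 exons (mmu_circ_0009939, 37624173 to 37647285), used the same acceptor and had 38, 37 and 25 reads in TREAT_HIGH and 34, 24 and 41 in CON. The longer of the 2 circles was thus the more abundant in every library.

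The next circles by abundance, of Unc79 and Acer3, had 6 exons each. The circle of Unc79, a subunit of the sodium leak channel complex (mmu_circ_0000411, chromosome 12, 102991350 to 103021876, plus strand), had 86, 102 and 78 reads in TREAT_HIGH and 112, 101 and 144 in CON. Its level was 808 ± 179 SRPBM in TREAT_HIGH and 936 ± 191 SRPBM in CON, with overlapping groups. The circle of Acer3, an alkaline ceramidase gene (mmu_circ_0001600, chromosome 7, 98243949 to 98266247, minus strand), had 116, 67 and 67 reads in TREAT_HIGH and 89, 83 and 95 in CON. TREAT_HIGH 1 held its highest value, 1025 SRPBM, and TREAT_HIGH 3 its lowest, 565 SRPBM.

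The circle of Ppp1cb, a catalytic subunit gene of a major serine/threonine phosphatase (mmu_circ_0001331, 7 exons, chromosome 5, 32478066 to 32491189), had 80, 54 and 73 reads in TREAT_HIGH and 58, 86 and 76 in CON. The circle of Arhgap32, a GTPase-activating protein of synapses (mmu_circ_0001762, 7 exons, chromosome 9, 32153040 to 32208265), stood at 380, 394.5 and 380 SRPBM in TREAT_HIGH and at 376, 497 and 529 SRPBM in CON. CON 1 lay just below all TREAT_HIGH libraries and the other CON libraries above them. The circle of Dcun1d4, a gene of cullin neddylation (mmu_circ_0012771, 6 exons, chromosome 5), had 48, 44 and 60 reads in TREAT_HIGH and 41, 43 and 59 in CON.

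The circle of Trpc6, a calcium-permeable cation channel gene (mmu_circ_0001743, 7 exons, chromosome 9, 8634047 to 8658377), varied more, with 66, 46 and 25 reads in TREAT_HIGH and 42, 46 and 31 in CON. The circle of Nsd2, a histone H3 methyltransferase gene (mmu_circ_0001336, 8 exons, chromosome 5), had 24, 18 and 52 reads in TREAT_HIGH and 18, 33 and 31 in CON. The circle of Akap7, which anchors protein kinase A (mmu_circ_0000153, 6 exons, chromosome 10), had 41, 24 and 27 reads in TREAT_HIGH and 19, 28 and 28 in CON. In SRPBM the Akap7 circle stood at 228 to 362 in TREAT_HIGH and 143 to 225 in CON, so its groups did not overlap, but the log2 difference of 0.48 (SE 0.38, adjusted p = 0.976 in edgeR) did not pass. In the other 9 of the 10 rows the groups overlapped, and none of the 10 had a paired row.

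**Figure D3:**
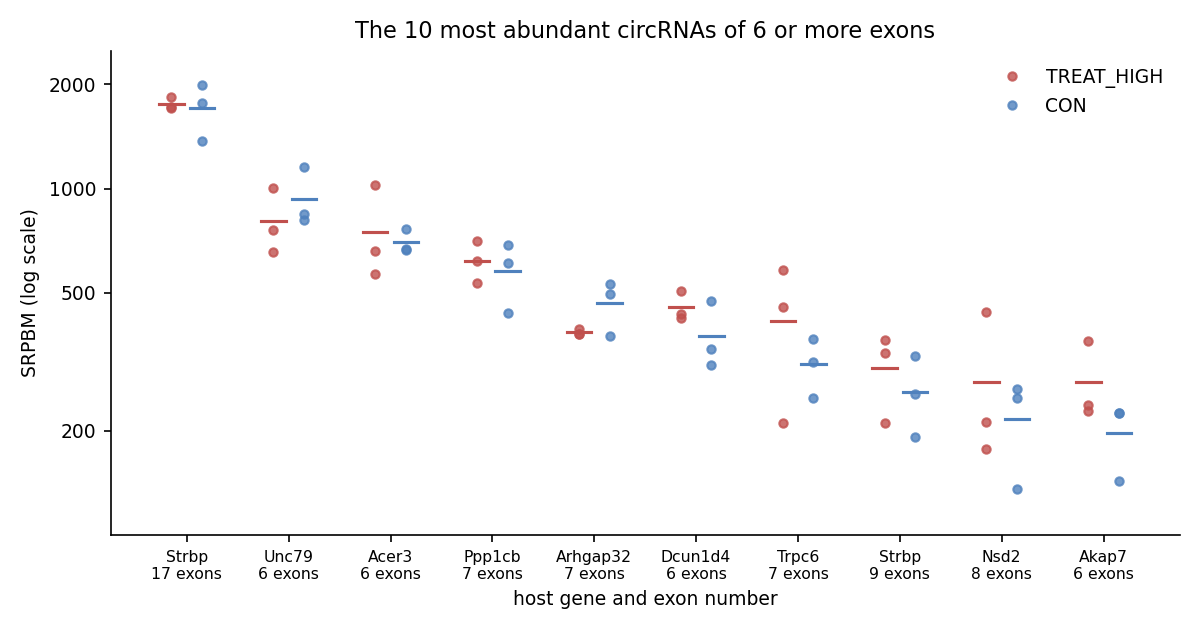
SRPBM (log scale) of the 10 most abundant circRNAs of 6 or more exons in each library (points; short lines are means, n = 3 per group), TREAT_HIGH left of CON for each circle. Points of the 2 groups overlap in 9 of the 10 circles, from the 17-exon circle of Strbp (1370 to 1989 SRPBM) downward, and lie apart for Akap7 (228 to 362 in TREAT_HIGH, 143 to 225 in CON).

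The level of a circle was set beside the linear level of its host. Over the 892 tested rows, the Spearman correlation between mean SRPBM and mean host FPKM was 0.095, as a description over circles that share libraries and, in part, host genes. Hosts had a median of 21.2 FPKM, against 3.34 FPKM for all genes at or above 0.5 FPKM, and 5 of the 892 rows had a host under 1 FPKM. Fancl stood at 2.37 to 3.92 FPKM over the 6 libraries and Ttc3 at 117 to 176 FPKM. None of the 559 host genes of tested rows passed between the groups in edgeR's quasi-likelihood test of linear gene counts (adjusted p of at least 0.05 in each; 0.0247% of all 20272 genes passed).

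Among circles found in every library, the one with the most exons came from Ttc3, a ubiquitin ligase gene (circRNA4085, 32 exons, chromosome 16, 94403315 to 94468060), with 7, 4 and 4 reads in TREAT_HIGH and 6, 5 and 11 in CON. A pair of Tbck circles followed, with 22 exons (circRNA2863) and 20 exons (mmu_circ_0010463), which shared their acceptor at position 132705513 of chromosome 3. The longer had 7, 5 and 6 reads in TREAT_HIGH and 3, 4 and 5 in CON. Its groups did not overlap in SRPBM, and its log2 difference of 0.76 (SE 0.86, adjusted p = 0.976 in edgeR) did not pass. The shorter had 4, 2 and 8 reads in TREAT_HIGH and 4, 4 and 6 in CON. Spans of all rows of 6 or more exons ran up to 1307200 bases. Within the circles found in every library, the widest span, 276972 bases, was that of a 7-exon circle of the active zone gene Erc2 (circRNA1431, chromosome 14, 28040343 to 28317314). It had 7, 4 and 7 reads in TREAT_HIGH and 12, 14 and 14 in CON, so no TREAT_HIGH library reached the lowest CON library in reads. Its log2 difference was -0.95 (SE 0.6, adjusted p = 0.976 in edgeR), and it did not pass. The circle of Diaph2, a formin gene of actin assembly (circRNA99, 12 exons, X chromosome), spanned 221818 bases and had 9, 8 and 4 reads in TREAT_HIGH and 10, 7 and 11 in CON.

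Some host genes gave many different long circles. Of 1924 hosts, 884 had a single row, 318 had 5 or more and 82 had at least 10. Dgki, a diacylglycerol kinase gene, had the most, with 46 rows (36 summed circles) of up to 23 exons and 806 reads. Summed over its rows, Dgki stood at 1441, 1252 and 785 SRPBM in TREAT_HIGH and at 1242, 1145 and 922.5 SRPBM in CON, so TREAT_HIGH held both the highest and the lowest value. Of its rows, 21 were found in at least 3 libraries and 5 in all 6. The strongest of these 5 (mmu_circ_0001463, 7 exons, chromosome 6, 37029763 to 37058028) had 27, 17 and 11 reads in TREAT_HIGH and 27, 15 and 16 in CON. A 12-exon circle with the same acceptor (mmu_circ_0001462, 37000042 to 37058028) had 10, 15 and 5 reads in TREAT_HIGH and 7, 6 and 13 in CON.

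Nbea, which encodes neurobeachin, a BEACH domain protein of membrane traffic to synapses, had 36 rows, 24 of them in a single library. Its main circle (mmu_circ_0001131, 9 exons, chromosome 3, 56057950 to 56091120) had 22, 17 and 18 reads in TREAT_HIGH and 30, 29 and 27 in CON. Its groups did not overlap, with 152 to 194 SRPBM in TREAT_HIGH and 217 to 232 SRPBM in CON, at a log2 difference of -0.39 (SE 0.39, adjusted p = 0.976 in edgeR), which did not pass. Dock3, an activator gene of the GTPase Rac, had 29 rows of up to 28 exons, of which 22 were in a single library. The Dock3 row of 10 exons (mmu_circ_0001839) had 13, 7 and 5 reads in TREAT_HIGH and 6, 4 and 3 in CON. Lrp1b, a receptor gene of the LDL receptor family, had 25 rows of up to 46 exons but only 75 reads, of which a 6-exon circle (mmu_circ_0009958) held 8, 2 and 2 in TREAT_HIGH and 3, 2 and 3 in CON. Ptpn4, a tyrosine phosphatase gene, had 23 rows and 178 reads, with 19, 6 and 14 in TREAT_HIGH and 11, 16 and 20 in CON from 1 circle of 13 exons (circRNA4842).

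Hosts were also read by function, over 8 lists of brain and housekeeping genes. The list of ubiquitin and protein turnover genes gave the most rows, 236 from 25 of its 28 genes, and 2.98% of the reads of the longer circles. The list also holds BEACH domain genes, and of its hosts Nbea had the most rows, 36. After its main circle, an 18-exon circle of Lrba, another BEACH domain gene (mmu_circ_0010827), was the most abundant, with 7, 3 and 2 reads in TREAT_HIGH and 10, 8 and 4 in CON. Of 29 rows tested in this list, 0 were called higher and 0 lower, with a median log2 difference of 0.17, beside 0.15 over all 3275 rows tested. For summed circles the list median was -0.09.

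Active zone and vesicle release genes gave 99 rows and 2.11% of the reads, with Rims2 as the host with most rows (16). A 6-exon circle of Cadps, which primes dense core vesicles (circRNA4783), had 18, 9 and 12 reads in TREAT_HIGH and 17, 20 and 12 in CON. A 9-exon circle of Stxbp5l, a tomosyn gene that restrains vesicle release (mmu_circ_0006250), had 13, 10 and 13 reads in TREAT_HIGH and 9, 10 and 9 in CON. Its groups did not overlap in SRPBM (log2 difference 0.55, SE 0.55, adjusted p = 0.976 in edgeR). Of 19 rows tested, 0 were called in either direction and 7 had a log2 difference above 0 (median -0.25).

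Postsynaptic scaffolds and adhesion genes gave 149 rows, of which 20 were tested. Their most abundant circle was that of Lrp8, a reelin receptor gene (mmu_circ_0001238, 6 exons), with 5, 7 and 6 reads in TREAT_HIGH and 7, 11 and 9 in CON. A circle of Magi2, a scaffold of excitatory synapses (circRNA4700, 8 exons), had 8, 0 and 5 reads in TREAT_HIGH and 4, 4 and 8 in CON. Its paired row held 3 reads in TREAT_HIGH 2 and none elsewhere, so the junction was seen in every library. Of the 20 rows, 16 had a log2 difference above 0 (median 0.73, and 0.29 for summed circles) and 0 were called. The median of all rows tested was 0.15, and that of this list was 0.07 among rows with at least 12 reads in total.

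Channels and receptors gave 109 rows, of which 11 were tested and 0 called (median 0.18). A 6-exon circle of Ryr2, a calcium release channel gene (mmu_circ_0000431), had 7, 3 and 4 reads in TREAT_HIGH and 6, 8 and 18 in CON. A circle of Cacna2d1, a calcium channel subunit gene (circRNA2217, 11 exons), had 15, 3 and 0 reads in TREAT_HIGH and 5, 7 and 1 in CON, and its paired row held 9 reads in TREAT_HIGH 3 and none elsewhere. Microtubule motors and cytoskeleton genes gave 115 rows, of which 9 were tested and 0 called (median 0.67), with Dock3 and Dock4 as the hosts of the most abundant circles. Kinases and phosphatases gave 67 rows, of which 16 were tested and 0 called (median 0.5). There a 6-exon circle of Dgkb (mmu_circ_0003959), a diacylglycerol kinase gene like Dgki, had 3, 0 and 11 reads in TREAT_HIGH and 1, 9 and 1 in CON.

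Chromatin and transcription genes gave 55 rows, of which 8 were tested and 0 called (median 0.89). A 7-exon circle of Rere, a transcriptional corepressor gene (mmu_circ_0001304), had 9, 4 and 10 reads in TREAT_HIGH and 18, 17 and 11 in CON. Its groups did not overlap (log2 difference -0.8, SE 0.55, adjusted p = 0.976 in edgeR). Genes of translation and RNA processing gave 30 rows and 64 reads, with 3 rows tested and 0 called (median -0.37). The most abundant was a 9-exon circle of Fmr1, the fragile X gene (mmu_circ_0016328), with 0, 1 and 0 reads in TREAT_HIGH and 3, 3 and 0 in CON. The medians of these lists rest on 3 to 29 rows, and all but that of the postsynaptic list (0.07 to 0.89) changed sign under at least 1 alternative setting. TMM library factors in place of the deposited totals put the median of all rows tested at 0.00.

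No difference in the total of the longer circles between exposed and control cortex was larger than the spread between libraries. Their summed SRPBM was 47343, 40491 and 38383 in TREAT_HIGH and 37805, 36793 and 42586 in CON, with TREAT_HIGH 1 the highest of all. The means were 42072 ± 4685 in TREAT_HIGH and 39061 ± 3094 in CON (SD, n = 3 each; p = 0.5, exact permutation test, two-sided, whose smallest p in this design is 0.1). Detected rows numbered 1579, 1364 and 1461 in TREAT_HIGH and 1592, 1468 and 1664 in CON (p = 0.2, exact permutation). At an equal depth of 15658 back-splice reads the expected numbers were 1420, 1364 and 1395 in TREAT_HIGH and 1439, 1393 and 1480 in CON.

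The longer circles made up 29.9%, 28.8% and 28.8% of exonic back-splice reads in TREAT_HIGH and 28.7%, 29.1% and 29.6% in CON (p = 0.8, exact permutation). Their mean exon number, weighted by reads, was 9.01 ± 0.0703 in TREAT_HIGH and 8.98 ± 0.17 in CON (n = 3 each; p = 0.9, exact permutation). For summed circles the p-values of these 4 comparisons were 0.5, 0.2, 1 and 0.9 in the same exact test.

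**Figure D4:**
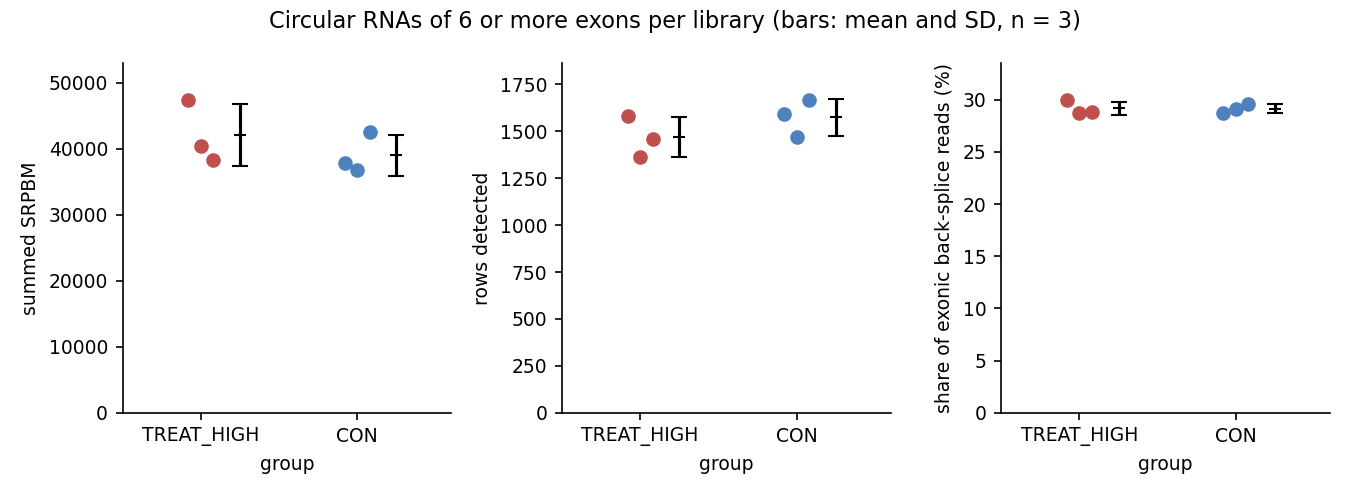
Summed SRPBM, number of detected rows and share of exonic back-splice reads of circRNAs of 6 or more exons in each library (points), with mean and SD beside them (n = 3 per group), TREAT_HIGH left of CON. The groups overlap in each panel, and the highest summed SRPBM is that of TREAT_HIGH 1 (47343).

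No single circle of 6 or more exons passed the test between the groups. Of 892 rows tested with edgeR's quasi-likelihood test, 0 were called higher (background 0.0% of 3275 rows of all types) and 0 lower (background 0.0305%), with a smallest adjusted p of 0.826. At an unadjusted p under 0.05 there were 51 rows (5.72%), 24 higher and 27 lower, where all rows tested gave 4.95%. With summed circles 0 of 985 were called higher (background 0.0281%) and 0 lower (background 0.0281%, and 0.0562% in either direction), with 49 at an unadjusted p under 0.05 (4.97%, background 4.61%). DESeq2 also called 0 rows (background 0.0305%), with 5 at an unadjusted p under 0.05 (background 0.672%). On log2 SRPBM limma called 0 (background 0.0%), with 63 at an unadjusted p under 0.05 (background 5.98%). Groups did not overlap, with TREAT_HIGH above CON, in 63 rows (7.06%, background 6.44%), and with TREAT_HIGH below CON in 45 (5.04%, background 4.52%). For summed circles there were 69 above (7.01%, background 6.57%) and 45 below (4.57%, background 4.16%). These shares lay near the background of the whole table.

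The precision was low for all but the abundant circles. The median standard error of a log2 difference was 1.42. In the 21 rows with at least 100 reads, log2 differences ran from -0.68 to 0.91 with standard errors of 0.24 to 0.66. Within groups, counts of the rows found in all 6 libraries varied 1.86 times as much as counting noise in TREAT_HIGH and 1.5 times in CON (chi-square per degree of freedom over all 186 rows). The median of this ratio over single rows was 1.25 in TREAT_HIGH and 1.21 in CON, and over summed circles 1.003 in TREAT_HIGH and 1.08 in CON. Under counting noise alone such a median lies below the mean, so these medians cannot be read on the scale of the values over all rows.

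**Figure D5:**
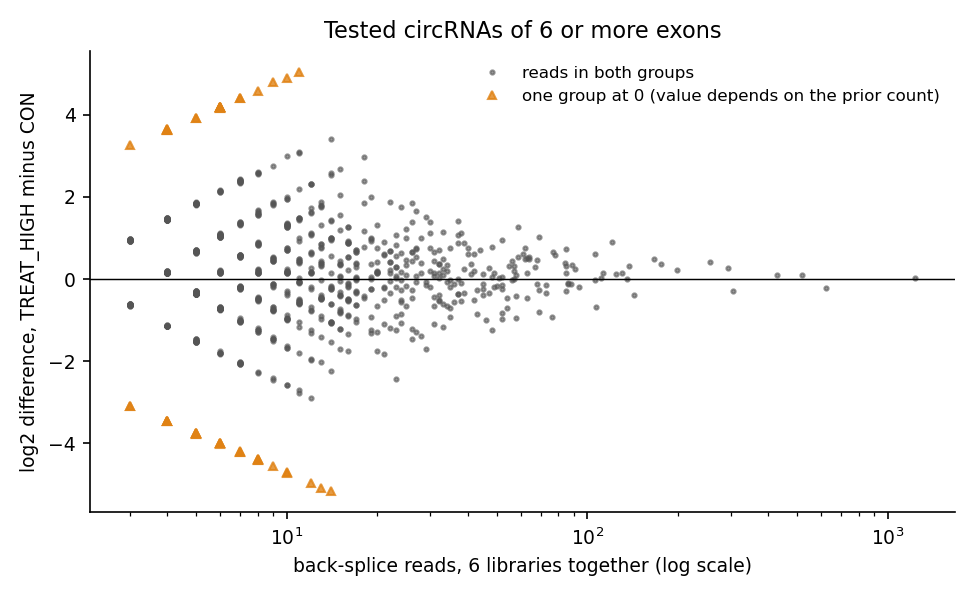
Log2 difference of TREAT_HIGH minus CON (y axis) against the back-splice reads over 6 libraries (x axis, log scale) for the 892 tested rows. The 49 rows with 1 group at 0 (triangles) lie far from 0 at low reads, and the 21 rows with at least 100 reads lie between -0.68 and 0.91.

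The 5 lower and 5 higher rows with the smallest p among those without overlap had few reads, all with an adjusted p of 0.826 in edgeR. Each had reads in 1 group only and so met the minimum of 3 libraries through the group where it was high, which makes their values a description of how they were picked. A 6-exon circle of Rapgef5, an activator gene of the GTPase Rap (circRNA4074, chromosome 12, 117575556 to 117613429), had 0 reads in each TREAT_HIGH library and 4, 5 and 5 in CON. A circle of Garnl3 (circRNA4737, 7 exons) had 0 reads in TREAT_HIGH and 4, 4 and 2 in CON. A circle of Kcnq3, a potassium channel gene that limits neuronal firing (circRNA4762, 8 exons), had 0 reads in TREAT_HIGH and 2, 5 and 3 in CON. These 3 circles had no paired row. The Arhgap32 circle of 8 exons (mmu_circ_0001761) had 0 reads in TREAT_HIGH and 1, 5 and 7 in CON, but its paired row held 6 reads in TREAT_HIGH 1. The circle of Pik3c2a, a lipid kinase gene (circRNA4186, 12 exons), had 0 reads in TREAT_HIGH and 3, 5 and 4 in CON, and its paired row held 3 reads in TREAT_HIGH 1.

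On the other side, a 10-exon circle of Zfyve9, an anchor of Smad proteins in TGF-beta signalling (mmu_circ_0011041), had 2, 4 and 4 reads in TREAT_HIGH and 0 in CON. A 6-exon circle of Ptpn4 (circRNA11829) had 1, 6 and 2 reads in TREAT_HIGH and 0 in CON, and an 8-exon circle of Akap10, another anchor of protein kinase A (mmu_circ_0003193), had 2, 2 and 2 in TREAT_HIGH and 0 in CON. A circle of Fip1l1, a polyadenylation factor gene (circRNA11383, 6 exons), had 4, 5 and 2 reads in TREAT_HIGH and 0 in CON, but its paired row held 2 reads in CON 1. The circle of Ankib1, a ubiquitin ligase gene (mmu_circ_0012613, 9 exons), had 2, 2 and 2 reads in TREAT_HIGH and 0 in CON, while its paired row held 4 reads in CON 3. Over the 892 tested rows of 6 or more exons, 28 were at 0 in TREAT_HIGH, of which 6 had a paired row with reads there. Another 21 were at 0 in CON, of which 7 had such a row. No share over rows of all types stands beside these counts, so they are not read as a result about the longer circles.

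The proteins that form and remove circRNAs were read from the linear gene table, over a list of 32 genes of which 31 were tested. By edgeR 0 of them were called higher and 0 lower (0.0247% of all 20272 genes passed). At an unadjusted p under 0.05 there were 2 of the 31, and 2.73% of all genes. Adarb1, an RNA editing enzyme of double-stranded RNA, stood at 74.6 ± 19.0 CPM in TREAT_HIGH and 163 ± 20.4 CPM in CON (n = 3 each), a log2 difference of -1.13 (SE 0.22, adjusted p = 0.789 in edgeR). DESeq2 called it lower (adjusted p = 0.00993, 1 of the 31 genes, where 0.232% of all genes passed), but with annotated isoforms only the log2 difference was 0.22. Tnrc6b, a partner of Argonaute proteins, stood at 230 ± 90.5 CPM in TREAT_HIGH and 111 ± 9.37 CPM in CON (log2 1.06, SE 0.29, adjusted p = 1 in edgeR), and its log2 difference was 0.24 with annotated isoforms only and 0.51 with limma on log2(FPKM + 0.1). Nono, a paraspeckle protein, and Ythdf2, a reader of methylated RNA, had log2 differences of 0.52 and 0.42 and did not pass either. The value of Nono rested on TREAT_HIGH 2, with 34.7, 72.1 and 33.1 CPM in TREAT_HIGH and 32.2, 33.4 and 32.1 CPM in CON, and was 0.05 without that library. That of Ythdf2 was 0.18 without CON 1, which had 23.0 CPM. Qk, which promotes circle formation by binding introns, stood at 967 ± 144 CPM in TREAT_HIGH and 940 ± 199 CPM in CON, and the median log2 difference of the list was 0.08, beside -0.01 over all genes tested.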

How the data were processed

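The deposited circRNA table gives back-splice counts (whole reads per junction and library) and SRPBM, a signal the authors scaled by 1 total per library, with an exon number per circle (another value the authors assigned). The deposited linear table gives FPKM and estimated counts per isoform. Per the labels' protocols, ribosomal RNA was removed and a stranded kit was used. HISAT2, StringTie and TopHat are listed, without versions, by the submitters' processing notes. No source used here gives the circRNA caller or the genome build.

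Rows of all types with reads in at least 3 of 6 libraries were fitted together in edgeR 4.0.16 (R 4.3.3), quasi-likelihood test, two-sided, with the totals behind SRPBM as library sizes and Benjamini-Hochberg adjustment at 0.05. SE was derived from the F statistic. Gene counts were sums of estimated counts, already whole, over annotated isoforms and assembled ones overlapping a gene's exons, with TMM factors, for genes of at least 0.5 mean FPKM, and CPM uses the TMM-scaled library sizes. DESeq2 1.42.0 and limma 3.58.1 were alternatives. The tests were run on simulated counts first. For Ensembl-labelled hosts, symbols came from a name table (787 of 787 rows matched).

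Named circles were the 10 most abundant, up to 5 higher and 5 lower by largest change past the threshold (filled by smallest p without overlap), the 3 with most exons and the 3 with widest span in all libraries, up to 3 per direction found in 1 group only, the 5 hosts with most rows, up to 2 per host list, the 5 most abundant of 5 and of 6 exons, and up to 4 linear genes by p. Further rows of named hosts, Qk and the paired rows were chosen after their values were seen. Members and lists were chosen with earlier results of these data known. One circle that the rule picked and one of the marker lists are not reported here. Summing paired rows was added after seeing the data. Libraries of a group were no copies: the chi-square per degree of freedom of their linear counts was 84.6 to 139 for each pair.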

Additional observations from a re-analysis of the deposited data

How the results depend on the processing

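The numbers of circles of 6 or more exons called higher and lower were 0 under all 37 alternatives, which covered library scaling, tests, filters, each library left out and summed pairs. The lowest adjusted p among them was 0.0679, without TREAT_HIGH 1. The replicate block, with replicate number as a term in edgeR, also gave 0 and 0 (3 rows at an unadjusted p under 0.05). No label says whether same-numbered libraries share more than the number. Their deviations correlated at 0.00775 to 0.0231 over rows and at 0.0137 to 0.0284 over summed circles. Over rows each TREAT_HIGH library correlated best with the CON library of its own number, and over summed circles none of them did. Another scaling put the median log2 difference of all rows at 0.00 (TMM factors), against 0.15. The 10 circles named for small p had reads in 1 group only, so their sign over rows was fixed by how they were picked.

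The difference in summed SRPBM kept its sign (376 to 4856), as did that in detected rows (-162 to -29). Shares of reads and mean exon number did not: the share differed by -0.181 percentage points with rows in at least 3 libraries and by -0.348 to 0.258 with 1 library left out (below 0 without TREAT_HIGH 1 or CON 1), and the exon number by -0.149 at 8 or more exons and by -0.0586 to 0.11 with 1 library left out (below 0 without TREAT_HIGH 1 or CON 2). With libraries paired by replicate number the differences are the same by construction, at 3011 SRPBM, -107 rows, 0.0361 points and 0.0329 exons. Only the p could change, and it was 0.75 for summed SRPBM and 0.25 for detected rows (exact permutation of signs, where 3 pairs allow no p below 0.25). Reads per row against circles of 2 to 5 exons differed by -0.236 to -0.229 with 1 library left out, where 5 libraries allow no p below 0.0625. DESeq2 called 1 gene of the circle formation list, Adarb1 (47 of all 20272 genes), and with annotated isoforms only Adarb1 had a log2 difference of 0.22 and Nono of -0.97. The cause was not tested. List medians rest on few rows and moved beyond their spread in 24 of 150 alternatives.

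Depth limits these values, with 15658 to 19957 back-splice reads per library and 408 of the 5462 rows at 12 reads or more, as do 3 libraries per group.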
